A study of Arabidopsis thaliana with 18 samples.

Results

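Transcript levels of 8 nuclear genes that govern chloroplast development were followed in Arabidopsis thaliana hypocotyls, the stem of the young seedling, as dark-grown tissue was moved into light. The genes were chosen by locus and are GLK1 (AT2G20570), GLK2 (AT5G44190), GNC (AT5G56860), CGA1 (AT4G26150), SIG1 (AT1G64860), SIG2 (AT1G08540), SIG5 (AT5G24120) and SIG6 (AT2G36990). They are 8 of 32833 genes in the count table, and 8 of 8 were among the 20955 genes that passed the filter on low counts. The 18 poly-A RNA libraries form 6 groups of 3, from the wild type (WT) and from hy1, each taken at 0 h, in the dark, and after 12 h and 24 h in light. The hy1 mutant is impaired in HY1, a plastid haem oxygenase needed to make the light-absorbing group of phytochrome, and its allele is not named in the labels. Genotypes were read from the sample descriptions, because the titles name WT samples as mock and hy1 samples by their light treatment, and any treatment given to 1 genotype alone cannot be told apart from genotype. No library kept dark for 12 h or 24 h was analysed here, so age, hour of the day and time elapsed cannot be told apart from light. The labels do not say whether replicates came from separate cultures, and p-values then measure the spread between these samples, which may be technical.

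GLK1 and GLK2 are paired GOLDEN2-LIKE transcription factors that switch on genes for light-harvesting proteins and chlorophyll synthesis. GNC and CGA1 are paired B-class GATA transcription factors that promote greening and raise chloroplast number, and CGA1 is known as a cytokinin-responsive gene. The SIG proteins are sigma factors, made in the nucleus and imported into plastids, where they direct the bacterial-type plastid-encoded RNA polymerase to its promoters. SIG2 and SIG6 are known for their part in early seedling greening, SIG5 for its response to blue light and stress and its use of the psbD promoter, and SIG1 for photosystem gene transcription in mature leaves.

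On the TAIR10 assembly the GLK genes lie at chr2:8855302-8857758 (GLK1, plus strand) and chr5:17798262-17800926 (GLK2, plus strand). The GATA genes lie at chr5:22989216-22991530 (GNC, minus strand) and chr4:13253084-13255106 (CGA1, plus strand). The sigma factor genes lie at chr1:24097736-24100970 (SIG1, plus strand), chr1:2703295-2706860 (SIG2, plus strand), chr5:8157151-8160343 (SIG5, minus strand) and chr2:15537225-15540139 (SIG6, minus strand). No exon of the 8 genes overlapped an exon of another annotated gene, on either strand. The 300 bases before the annotated start are shown for 4 of them, read from the RefSeq TAIR10.1 genome and written 5′ to 3′ on the strand of the gene. GLK1 and SIG5 are shown because their light responses differed most between the genotypes, GLK2 as the paralog of GLK1, and SIG2 because it held the motif listed for GLK factors. The windows are chr2:8855002-8855301 (GLK1, plus strand), chr5:17797962-17798261 (GLK2, plus strand), chr5:8160344-8160643 (SIG5, minus strand) and chr1:2702995-2703294 (SIG2, plus strand). Capitals mark matches, on either strand, to any of 5 motifs, namely the G-box CACGTG, the PBE-box CACATG, the GLK motif CCAATC, the I-box GATAAG and the evening element AAAATATCT.
GLK1: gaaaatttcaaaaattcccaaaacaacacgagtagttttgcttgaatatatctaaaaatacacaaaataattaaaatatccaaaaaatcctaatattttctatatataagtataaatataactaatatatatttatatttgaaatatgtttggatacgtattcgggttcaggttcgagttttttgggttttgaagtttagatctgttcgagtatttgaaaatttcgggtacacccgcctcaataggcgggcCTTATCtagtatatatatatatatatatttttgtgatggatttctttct
GLK2: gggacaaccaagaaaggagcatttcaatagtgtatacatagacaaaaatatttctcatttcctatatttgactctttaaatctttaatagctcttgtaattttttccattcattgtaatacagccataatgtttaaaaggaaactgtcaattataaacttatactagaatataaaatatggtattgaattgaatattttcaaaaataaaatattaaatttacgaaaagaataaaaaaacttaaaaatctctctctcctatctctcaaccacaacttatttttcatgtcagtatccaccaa
SIG5: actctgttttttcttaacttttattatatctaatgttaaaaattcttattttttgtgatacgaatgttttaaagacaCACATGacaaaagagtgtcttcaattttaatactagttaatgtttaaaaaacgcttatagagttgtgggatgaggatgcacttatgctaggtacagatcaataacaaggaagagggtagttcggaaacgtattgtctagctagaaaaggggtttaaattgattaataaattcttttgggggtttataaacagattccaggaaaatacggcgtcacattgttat
SIG2: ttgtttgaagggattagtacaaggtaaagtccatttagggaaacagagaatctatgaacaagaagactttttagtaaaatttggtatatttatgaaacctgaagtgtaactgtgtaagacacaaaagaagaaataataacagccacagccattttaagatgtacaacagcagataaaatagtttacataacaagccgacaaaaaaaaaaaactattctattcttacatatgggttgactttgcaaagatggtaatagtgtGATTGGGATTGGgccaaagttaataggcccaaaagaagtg
The GLK1 window held 1 I-box, which began 49 bases before the start, and 14.5% of the 27438 windows of protein-coding genes held at least 1. The SIG5 window held 1 PBE-box, 223 bases before the start, and 13.1% of windows held that motif. The SIG2 window held 2 adjoining GLK motifs, at 40 and 34 bases before the start, against 12.2% of windows with at least 1, and 168 of its 300 bases lie in a neighbouring gene. No match to the G-box, held by 7.09% of windows, or to the evening element, held by 2.79%, was found in any of the 8 windows, and the windows of GLK2, GNC, CGA1, SIG1 and SIG6 held none of the 5 motifs. These are matches of letters and say nothing about binding.

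Depth ran from 38469946 to 59905064 counts per library. In 3 libraries, WT 24 h replicate 3 and WT 12 h replicates 2 and 3, the profile stood apart. Correlations across genes, which are not independent replicates, ran from 0.9519 to 0.9744 in the 4 pairs joining 1 of the 3 to a group member outside the 3. The remaining 14 within-group pairs reached 0.9864 to 0.9953. Pairs were sorted into these ranges by the correlation itself, so the gap between the ranges tests nothing. Within WT 12 h, replicates 2 and 3 correlated at 0.9864 with each other and at 0.9519 and 0.9706 with replicate 1. Correlation alone therefore does not say which WT 12 h libraries are unusual. Short genes (exon length over 400 and up to 800 bases) supplied 1.36% to 1.83% of counts in the 3 libraries, compared with 1.93% to 2.86% in the other 15. Some results that rest on them are given over 18 libraries only, and how far these depend on the 3 is not shown. Others are also given without them. The WT 12 h group then has 1 library, assumed to vary like the other groups, and the WT 24 h group has 2. HY1 transcripts were present in every hy1 library, at 18.4 to 36.3 CPM against 23.4 to 47.9 CPM in WT. CPM (counts over the scaled library size) is used to compare libraries, and FPKM, which also divides by exon length, to compare genes. Changes are log2 fold changes ± standard error from edgeR's quasi-likelihood test over 18 libraries, with Benjamini-Hochberg adjusted p-values, and a gene rose or fell where adjusted p was under 0.05. In bulk tissue, fewer cells of a type and less RNA per cell cannot be told apart.

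In WT, 12 h of light raised all 4 sigma factor genes and both GATA genes and lowered GLK1, while GLK2 was not called. That is 6 of 8 genes up and 1 down, where 28.3% of the 20955 tested genes rose and 25.3% fell. The median log2 fold change was 2.79 over the 8 genes and 0.01 over all genes tested. By 24 h the split was again 6 up and 1 down, against 24.6% and 23.1% of tested genes, with medians of 2.36 and 0.02. In hy1, 8 of 8 genes rose at 12 h, where 22.9% of tested genes rose and 21.3% fell, and 8 of 8 rose at 24 h, where 20.4% rose and 20.1% fell. The hy1 medians were 2.05 at 12 h and 2.07 at 24 h, with 0.01 and 0 over all genes tested. Without the 3 libraries that stood apart, WT had 6 up and 1 down at 12 h, where 25.2% of tested genes rose and 22.2% fell, and 7 up and 1 down at 24 h, GLK2 being the gene added, where 29.6% rose and 28.7% fell. In that fit hy1 again had 8 up at both times, beside 30.8% up and 29.4% down at 12 h and 28.3% and 28.7% at 24 h among all tested genes.

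**Figure D1:**
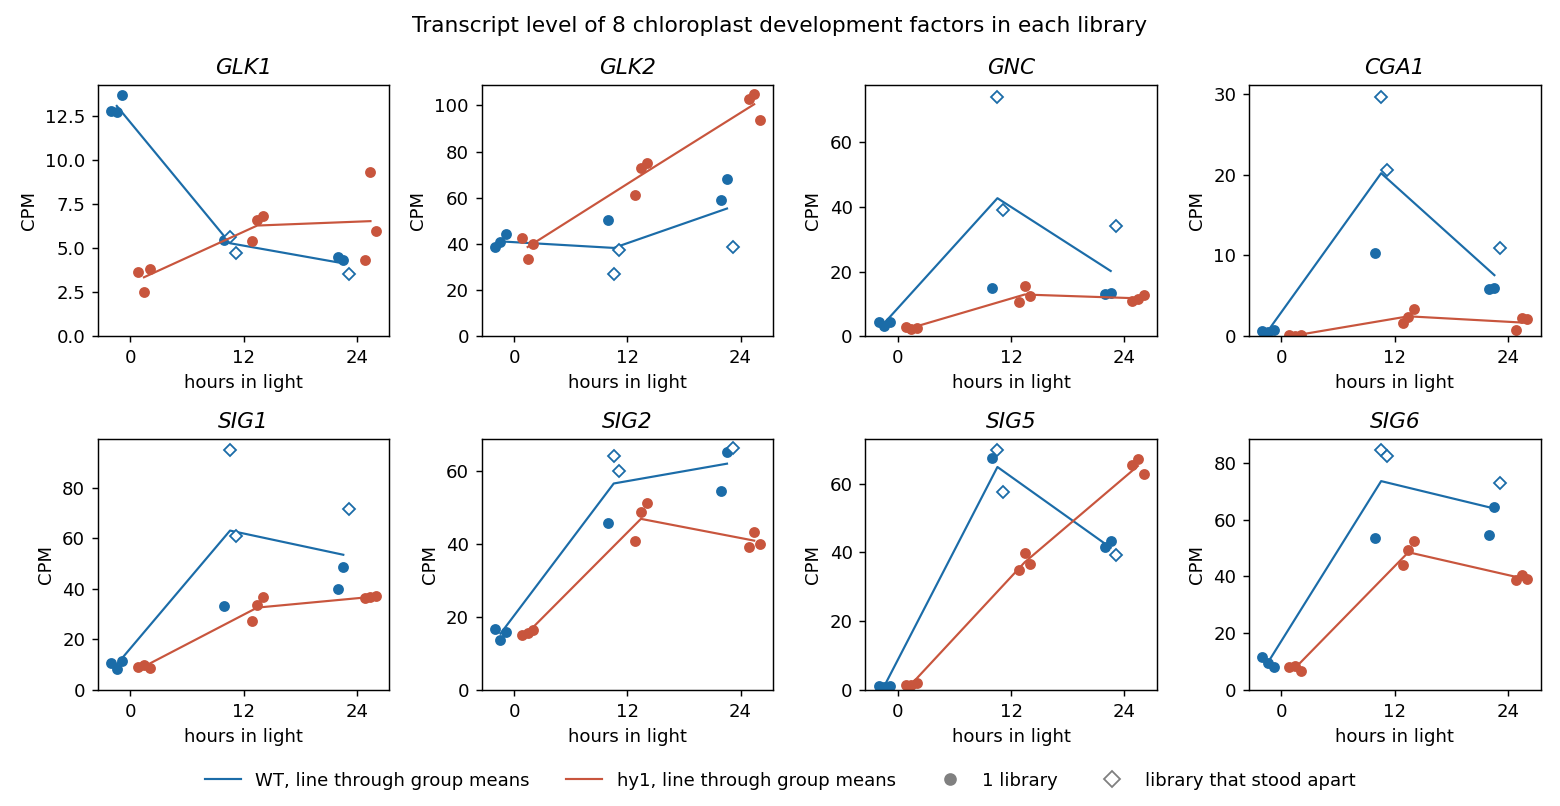
Level of each gene in CPM (vertical axis, from 0) in each of the 18 libraries against hours in light (horizontal axis), WT in blue and hy1 in red, with lines through group means and open diamonds for the 3 libraries that stood apart. GLK1 drops from 12.7 to 13.7 CPM in dark WT to at most 5.62 CPM in light, and SIG5 is at or under 2.01 CPM in all 6 dark libraries. Among WT libraries of the same light time, the diamonds lie highest for GNC, CGA1, SIG1, SIG2 and SIG6 and lowest for GLK2.

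GLK1 was the gene whose light response ran in opposite directions in the 2 genotypes. In dark WT it stood at 12.8, 12.7 and 13.7 CPM in replicates 1 to 3, and in dark hy1 at 3.67, 2.54 and 3.84 CPM. Every dark WT library thus lay above every dark hy1 library, and GLK1 was 3.9-fold lower in hy1 (log2 -1.96 ± 0.22, edgeR adjusted p = 3.1e-05). In light, WT dropped to 5.48, 5.62 and 4.74 CPM at 12 h and 4.52, 4.35 and 3.55 CPM at 24 h. No WT light library reached the dark WT level, and GLK1 fell by 1.31 ± 0.22 on the log2 scale at 12 h (adjusted p = 0.00016) and by 1.66 ± 0.22 at 24 h (adjusted p = 1.9e-05). In hy1 it stood at 5.42, 6.59 and 6.84 CPM at 12 h and 4.31, 9.3 and 5.99 CPM at 24 h, above each dark hy1 library. The rise of GLK1 there was 0.91 ± 0.23 (adjusted p = 0.0042) and 0.96 ± 0.23 (adjusted p = 0.0031) at those times.

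The difference between the genotypes in the light response of GLK1, an interaction of genotype and light, was 2.21 ± 0.32 at 12 h (edgeR adjusted p = 0.00049) and 2.62 ± 0.32 at 24 h (adjusted p = 1e-04). Without the 3 libraries that stood apart it was 2.16 (adjusted p = 0.0028) and 2.52 (adjusted p = 0.00013). Once in light, the groups lay closer, with hy1 against WT at 0.25 ± 0.22 (adjusted p = 0.4) at 12 h and 0.66 ± 0.22 (adjusted p = 0.051) at 24 h. Ordered by mean level, dark WT (13.1 CPM) was followed by hy1 24 h (6.53), hy1 12 h (6.28), WT 12 h (5.28), WT 24 h (4.14) and dark hy1 (3.35). Among neighbours in that order, dark WT stood clear of hy1 24 h and WT 12 h of WT 24 h, and the other neighbours overlapped.

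Markers of 2 other cell populations also differed between groups, and their part in the change of GLK1 was not tested. STM, which keeps shoot meristem cells undifferentiated, stood at 18.5 to 27.4 CPM in dark WT and fell by 1.70 ± 0.31 on the log2 scale at 12 h (edgeR adjusted p = 0.00033) and by 1.93 ± 0.31 at 24 h (adjusted p = 0.00012). In hy1 STM was at 13.9 to 15.9 CPM in the dark and 16.8 to 23.7 CPM at 12 h, with an interaction of 2.16 ± 0.44 (adjusted p = 0.0054). The shoot meristem list of 3 genes, of which 1 was tested, summed to 18.5 to 27.5 CPM in dark WT, 4.87 to 10.3 at WT 12 h, 3.24 to 8.75 at WT 24 h, and 14 to 15.9, 16.9 to 24.1 and 15.2 to 19.6 CPM in hy1 at the same times. Its defining genes WUS and CLV3 had no read in WT 24 h and in dark hy1 respectively. FAMA, which drives the last step of guard cell formation, was lower in dark hy1 (-2.18 ± 0.29, adjusted p = 8.9e-05), at 0.281 to 0.71 CPM against 1.6 to 2.59 CPM. The 6 stomatal lineage genes, 4 of them tested, summed to 3.96 to 7.33 CPM in dark WT, 4.22 to 14.5 at WT 12 h and 3.64 to 7.35 at WT 24 h. In hy1 they summed to 1.22 to 2.15, 12.7 to 21.1 and 4.86 to 9.52 CPM at 0 h, 12 h and 24 h. Of the 4 tested, FAMA alone was called between the dark genotypes, where 12.4% of tested genes were lower. At each WT light time 1 of the 4 rose and 0 fell, while GLK1 fell, beside 28.3% and 24.6% of tested genes rising. In hy1 3 of the 4 rose at each light time, beside 22.9% and 20.4%.

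Its paralog GLK2 was more abundant per length and was not called different between the dark genotypes. Per length, GLK2 stood at 24.1 ± 1.56 FPKM (SD, n = 3) in dark WT and GLK1 at 7.66 ± 0.331 FPKM. The FPKM ratio of GLK2 to GLK1 was 3.01 to 3.21 in the 3 dark WT libraries and 10.4 to 13.1 in the 3 dark hy1 libraries, which do not overlap. GLK2 itself was at 38.5, 40.7 and 44.2 CPM in dark WT and 42.7, 33.4 and 40 CPM in dark hy1, and its 95% interval for hy1 against WT ran from -0.52 to 0.35 on the log2 scale. In WT the light libraries spread widely, at 50.3, 27 and 37.6 CPM at 12 h and 59.1, 68.3 and 38.7 CPM at 24 h. They overlapped the dark ones, and GLK2 was not called in WT at 12 h (-0.10 ± 0.21, interval -0.54 to 0.33, edgeR adjusted p = 0.69) or 24 h (0.43 ± 0.2, adjusted p = 0.098).

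In hy1 GLK2 stood higher at each later time, going from the dark level to 61.3, 73 and 75 CPM at 12 h and 103, 105 and 93.6 CPM at 24 h. No hy1 groups overlapped, and GLK2 rose from 0 h by 0.85 ± 0.2 (edgeR adjusted p = 0.0033) and then 1.38 ± 0.2 (adjusted p = 6.8e-05). The step from 12 h to 24 h was 0.53 ± 0.2 (adjusted p = 0.18). Without the 3 libraries that stood apart, none of them from hy1, the estimate stayed at 0.525. The step was then called, as were more of all tested genes. GLK2 was higher in hy1 than in WT at 12 h (0.86 ± 0.2, adjusted p = 0.0061) and 24 h (0.86 ± 0.2, adjusted p = 0.0085), and lay in hy1 above every WT library of the same time. With the 3 libraries that stood apart left out the 12 h difference was 0.473 (adjusted p = 0.037), and it was not called with the 2 groups fitted alone (0.854, adjusted p = 0.064). The interaction was called at 12 h (0.95 ± 0.29, adjusted p = 0.041) and narrowly missed at 24 h (0.95 ± 0.29, adjusted p = 0.055), and 12 of the 18 fits leaving out 1 library lost the 12 h call (adjusted p up to 0.095). Without the 3 libraries that stood apart those calls changed places, at 0.562 (adjusted p = 0.053) and 0.747 (adjusted p = 0.0035), and GLK2 then rose in WT at 24 h (0.631, adjusted p = 2e-04). Leaving out WT 24 h replicate 3 alone also gave that rise (0.608, adjusted p = 0.014). By mean level hy1 24 h (100 CPM) stood clear of hy1 12 h (69.8), and from there WT 24 h (55.4), dark WT (41.1), dark hy1 (38.7) and WT 12 h (38.3) each overlapped the next.

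Both GATA genes rose in light in both genotypes, and CGA1 was lower in hy1 at all 3 times. GNC was at 4.5, 3.21 and 4.45 CPM in dark WT, 15, 74 and 38.9 CPM at 12 h and 13.1, 13.5 and 33.9 CPM at 24 h. Its WT light levels depended on the library, with the 3 that stood apart highest, and the rise was 3.39 ± 0.44 (edgeR adjusted p = 2.3e-05) at 12 h, or 1.89 without those libraries (adjusted p = 2.3e-06). At WT 24 h the rise was 2.32 ± 0.44 (adjusted p = 0.00061). In hy1 GNC went from 3.03, 2.31 and 2.53 CPM to 10.5, 15.6 and 12.6 CPM at 12 h and 10.8, 11.6 and 12.8 CPM at 24 h. Both hy1 light groups lay above the dark one, with rises of 2.29 ± 0.45 (adjusted p = 0.00087) and 2.16 ± 0.46 (adjusted p = 0.0016).

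Dark GNC libraries of the genotypes did not overlap, but the difference of -0.63 ± 0.47 was not called over 18 libraries (edgeR adjusted p = 0.36). When the 3 libraries that stood apart, none of them dark, were dropped, the difference stayed at -0.629. It was then called, as were more of all tested genes. At 12 h GNC was called lower in hy1 (-1.73 ± 0.43, adjusted p = 0.0085) although WT replicate 1 lay within the hy1 range. That call was lost without the 3 libraries (-0.226, adjusted p = 0.49) and without WT 12 h replicate 2 alone (-1.08, adjusted p = 0.064). By mean level WT 12 h (42.6 CPM), WT 24 h (20.2), hy1 12 h (12.9) and hy1 24 h (11.7) each overlapped the next, and dark WT (4.05) and dark hy1 (2.62) lay below them without overlap.

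CGA1 was nearly silent in the dark. It stood at 0.714, 0.475 and 0.823 CPM in dark WT and 0.142, 0 and 0.187 CPM in dark hy1, where the 3 libraries held 14 reads in all. No read of CGA1 was counted in hy1 0 h replicate 2, which allows up to 0.0687 CPM at a floor of 3 counts, for counting error only. The groups did not overlap, and the log2 difference was -2.59 ± 0.85 (edgeR adjusted p = 0.021), a call lost without WT 0 h replicate 1 (adjusted p = 0.054) or 3 (0.059) or without hy1 0 h replicate 2 (0.082). Light took WT to 10.3, 29.6 and 20.6 CPM at 12 h and 5.82, 5.97 and 10.9 CPM at 24 h. In hy1 it took CGA1 to 1.7, 2.4 and 3.33 CPM at 12 h and 0.771, 2.21 and 2.14 CPM at 24 h, so that no hy1 library reached the lowest WT library of its time.

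CGA1 was 8.16-fold lower in hy1 at 12 h (-3.03 ± 0.45, edgeR adjusted p = 0.00038) and 4.44-fold lower at 24 h (-2.15 ± 0.46, adjusted p = 0.0051). Both calls held without the 3 libraries that stood apart, at -2.06 (adjusted p = 0.0075) and -1.80 (adjusted p = 0.0037). Measured from its own dark level, CGA1 rose by 4.90 ± 0.51 in WT (adjusted p = 2e-06) and 4.46 ± 0.81 in hy1 (adjusted p = 6.4e-05) at 12 h, and by 3.48 ± 0.51 (adjusted p = 4.7e-05) and 3.93 ± 0.82 (adjusted p = 3e-04) at 24 h. The few dark reads make these folds depend on the prior count of the fit. The interactions were -0.44 (interval -2.47 to 1.6) and 0.44 (interval -1.61 to 2.49), which leaves wide room for a difference either way. Without the 3 libraries that stood apart the WT rises were 3.93 at 12 h and 3.13 at 24 h. The interactions were then 0.54 and 0.799, so that the 12 h value changed sign. From 12 h to 24 h in WT, CGA1 moved by -1.41 ± 0.44 (adjusted p = 0.059), and fits that left out 1 library ran from -1.79 to -1.04 (adjusted p from 0.0048 to 0.25, called in 4 of 18). CGA1 was at -0.797 in that step (adjusted p = 0.49) once the 3 libraries that stood apart were dropped. Of the summed FPKM of the GATA pair, CGA1 made up 30.5% to 42.8% at WT 12 h and 14.4% to 22.5% at hy1 12 h. By mean level WT 12 h (20.1 CPM) overlapped WT 24 h (7.55), which stood clear of hy1 12 h (2.47), and hy1 24 h (1.71) overlapped both hy1 12 h and dark WT (0.671), with dark hy1 (0.11) lowest.

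**Figure D2:**
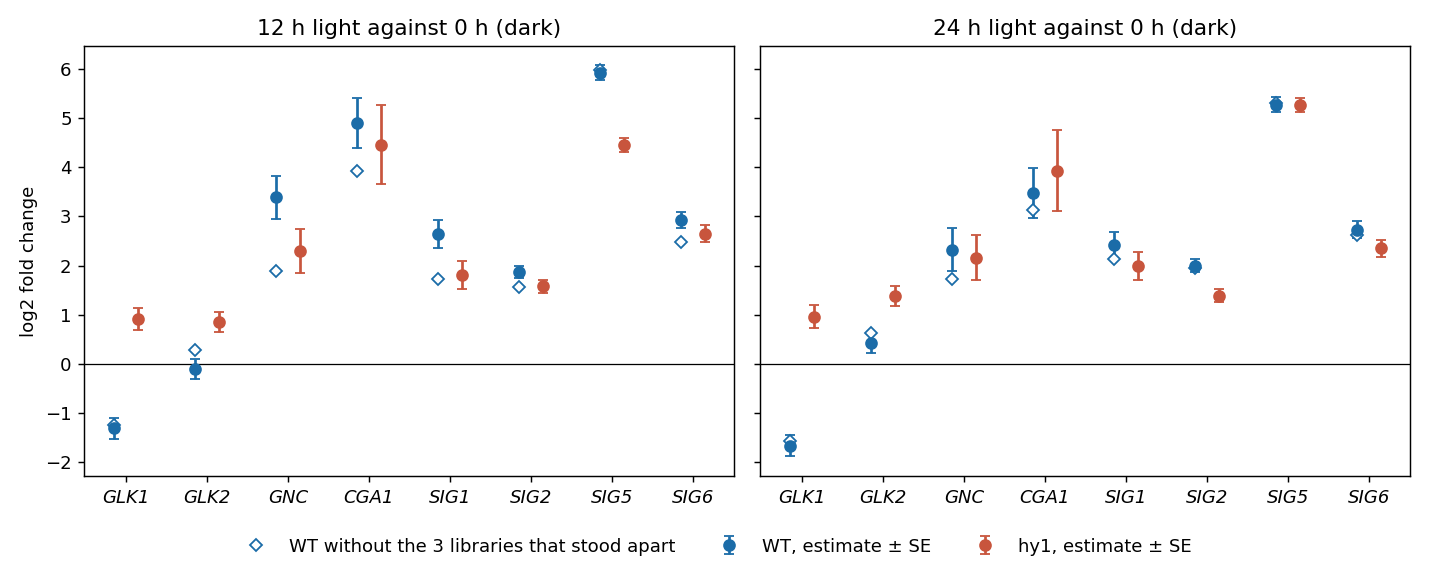
Log2 fold change of each gene at 12 h (left) and 24 h (right) of light against 0 h, WT in blue and hy1 in red, bars showing 1 standard error, with open diamonds for WT without the 3 libraries that stood apart. GLK1 lies below 0 in WT and above 0 in hy1 at both times, and SIG5 has the highest WT points, at 5.92 and 5.27, beside hy1 at 4.46 and 5.27.

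SIG5 had the largest light response of the 8 genes in WT at both times and in hy1 at 24 h, and its time course crossed between genotypes. In dark WT it stood at 1.14, 0.807 and 1.25 CPM and in dark hy1 at 1.51, 1.51 and 2.01 CPM, without overlap (hy1 higher by 0.65 ± 0.16, edgeR adjusted p = 0.0065). WT went to 67.4, 69.7 and 57.5 CPM at 12 h and back to 41.5, 43.3 and 39.3 CPM at 24 h, and hy1 to 35, 39.7 and 36.7 CPM at 12 h and on to 65.5, 67.2 and 62.8 CPM at 24 h. At 12 h each WT library lay above each hy1 library, and at 24 h each hy1 library lay above each WT library. From 0 h SIG5 rose 60.6-fold in WT (5.92 ± 0.15, adjusted p = 8.8e-13) and 22.1-fold in hy1 (4.46 ± 0.14, adjusted p = 1.2e-11) at 12 h. At 24 h the rises were 5.27 ± 0.15 in WT (adjusted p = 3e-12) and 5.27 ± 0.14 in hy1 (adjusted p = 2.1e-12).

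Between 12 h and 24 h SIG5 fell in WT by 0.65 ± 0.12 on the log2 scale (edgeR adjusted p = 0.0041) and rose in hy1 by 0.81 ± 0.12 (adjusted p = 0.001). It was 1 of 8 genes called in each of these steps, against 9.08% of tested genes in WT and 4.89% in hy1. In the WT step 5 of the 8 were called when WT 12 h replicate 1 was left out, and 4 when WT 24 h replicate 3 was, SIG5 among them. Calls over all genes rose as well, from 1902 to 8279 and to 5443 in these fits. The genotypes differed in that step by 1.46 ± 0.18 (adjusted p = 0.00045), where 0.539% of tested genes were called and SIG5 alone among the 8. In the response from 0 h they differed at 12 h (-1.46 ± 0.2, adjusted p = 0.00032), while at 24 h the difference was 0.00 with an interval from -0.42 to 0.43. The 12 h and step differences held without the 3 libraries that stood apart, at -1.51 (adjusted p = 0.00032) and 1.48 (adjusted p = 0.00021). When each pair of groups was fitted alone, SIG5 missed the threshold in the WT step (-0.646, adjusted p = 0.12) and between dark genotypes (0.658, adjusted p = 0.06). Ordered by mean, hy1 24 h (65.2 CPM) overlapped WT 12 h (64.9), WT 24 h (41.4) overlapped hy1 12 h (37.1), and dark hy1 (1.68) and dark WT (1.06) lay apart.

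The other 3 sigma factor genes also rose in both genotypes at both times. SIG6 went from 11.5, 9.33 and 8.1 CPM in dark WT to 53.7, 84.7 and 82.4 CPM at 12 h and 54.5, 64.4 and 72.9 CPM at 24 h. In hy1 SIG6 went from 8.07, 8.57 and 6.51 CPM to 43.9, 49.3 and 52.4 CPM and then 38.6, 40.5 and 39.1 CPM. The light groups lay above the dark ones in both genotypes, and the rise was 2.93 ± 0.17 in WT (edgeR adjusted p = 4.3e-09) and 2.65 ± 0.17 in hy1 (adjusted p = 1.8e-08) at 12 h. At 24 h it was 2.73 ± 0.17 (adjusted p = 8.6e-09) and 2.35 ± 0.17 (adjusted p = 6.1e-08). Against WT, hy1 had less SIG6 at both light times, by -0.60 ± 0.17 (adjusted p = 0.015) and -0.70 ± 0.17 (adjusted p = 0.0096), without overlap. The 12 h call was lost without the 3 libraries (-0.146, adjusted p = 0.58), without WT 12 h replicate 2 (-0.497, adjusted p = 0.072) or 3 (-0.514, adjusted p = 0.075) and without hy1 12 h replicate 1 (-0.544, adjusted p = 0.064). At 24 h it was lost without WT 24 h replicate 3 (-0.565, adjusted p = 0.051) but not without the 3 (-0.591, adjusted p = 0.0027). By mean level WT 12 h (73.6 CPM) and WT 24 h (63.9) overlapped, hy1 12 h (48.5) and hy1 24 h (39.4) each stood clear of their neighbours, and dark WT (9.66) and dark hy1 (7.72) overlapped.

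SIG2, with the smallest rise of the 4 sigma factor genes in each light comparison, was at 16.7, 13.8 and 15.8 CPM in dark WT, 45.7, 64.1 and 60 CPM at 12 h and 54.6, 65.2 and 66.3 CPM at 24 h. In hy1 SIG2 was at 15, 15.7 and 16.4 CPM in the dark, 40.7, 48.8 and 51.2 CPM at 12 h and 39.3, 43.4 and 40.1 CPM at 24 h. Dark levels overlapped between genotypes (interval of the log2 difference -0.26 to 0.3), and at 24 h every hy1 library lay below every WT library. The rise was 1.87 ± 0.13 in WT (edgeR adjusted p = 1.6e-08) and 1.58 ± 0.13 in hy1 (adjusted p = 1.1e-07) at 12 h, and 2 ± 0.13 (adjusted p = 8e-09) and 1.39 ± 0.13 (adjusted p = 5.4e-07) at 24 h. The hy1 level of SIG2 at 24 h was below that of WT by -0.60 ± 0.13 (adjusted p = 0.0041), and the interaction there was -0.62 ± 0.18 (adjusted p = 0.046), a call at the edge of the threshold that 15 of the 18 fits leaving out 1 library lost (adjusted p from 0.057 to 0.16). Ordered by mean, WT 24 h (62 CPM), WT 12 h (56.6), hy1 12 h (46.9) and hy1 24 h (40.9) each overlapped the next, as did dark hy1 (15.7) and dark WT (15.5) far below.

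SIG1 was at 10.6, 8.24 and 11.4 CPM in dark WT, 33.3, 95.1 and 60.7 CPM at 12 h and 40.1, 48.6 and 71.7 CPM at 24 h. In hy1 SIG1 was at 8.97, 9.97 and 8.83 CPM in the dark, 27.2, 33.7 and 36.8 CPM at 12 h and 36.5, 36.8 and 37 CPM at 24 h. Light groups stood clear of dark ones, and the 3 WT libraries that stood apart again gave the highest light values. The rise was 2.64 ± 0.28 in WT (edgeR adjusted p = 2.4e-06) and 1.81 ± 0.28 in hy1 (adjusted p = 1e-04) at 12 h, with 1.72 in WT without those libraries (adjusted p = 6.9e-07). At 24 h it was 2.41 ± 0.28 in WT (adjusted p = 5.9e-06) and 1.99 ± 0.28 in hy1 (adjusted p = 5.1e-05). SIG1 was called lower in hy1 at 12 h (-0.95 ± 0.28, adjusted p = 0.018) with overlapping groups, a call lost without the 3 libraries (-0.0308, adjusted p = 0.92), without WT 12 h replicate 2 (-0.539, adjusted p = 0.14) and without hy1 12 h replicate 1 (-0.848, adjusted p = 0.074). By mean level WT 12 h (63 CPM) overlapped WT 24 h (53.5), hy1 24 h (36.8) overlapped hy1 12 h (32.6), and dark WT (10.1) overlapped dark hy1 (9.26).

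Counted over the 8 genes, hy1 differed from WT in 3 genes in the dark (CGA1 and GLK1 lower, SIG5 higher), where 12.2% of tested genes were higher and 12.4% lower. At 12 h it differed in 6 genes (GLK2 higher and GNC, CGA1, SIG1, SIG5 and SIG6 lower), where 14.9% were higher and 17.8% lower. At 24 h it differed in 5 (GLK2 and SIG5 higher and CGA1, SIG2 and SIG6 lower), where 10.5% were higher and 10.2% lower. Medians over the 8 genes were -0.22, -0.70 and -0.57 on the log2 scale at the 3 times, beside -0.01, 0.01 and -0.04 over all genes tested. Without the 3 libraries that stood apart the counts were 4, 3 and 5, beside 45.2%, 18.9% and 33.6% of tested genes, the 3 left at 12 h being GLK2, CGA1 and SIG5. The interaction was called for 3 genes at 12 h (GLK1, GLK2 and SIG5), against 13.5% of tested genes, and for 2 at 24 h (GLK1 and SIG2), against 8.67%. Leaving out WT 12 h replicate 1 raised the 12 h interaction count to 6, while calls over all genes rose from 2835 to 8626. Leaving out WT 12 h replicate 2 lowered the count between genotypes at 12 h to 3, while calls over all genes fell from 6853 to 4479. These comparisons share libraries and are not independent of each other.

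**Figure D3:**
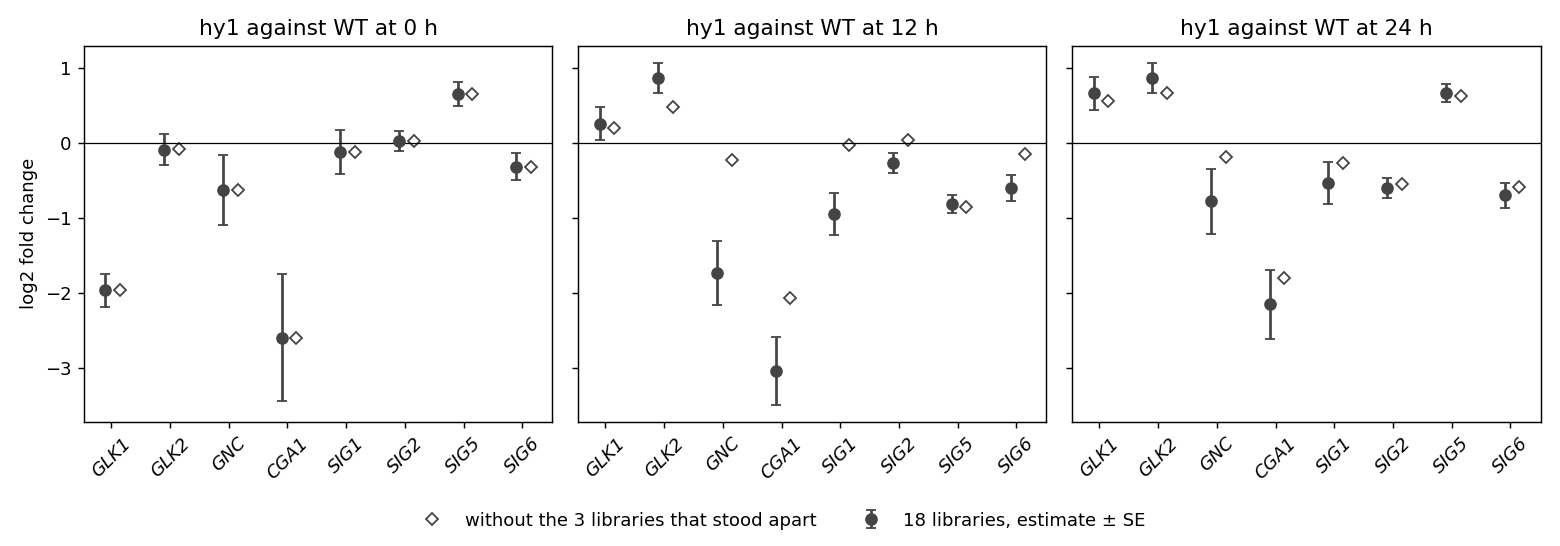
Log2 fold change of hy1 against WT for each gene at 0 h, 12 h and 24 h, filled points with bars of 1 standard error from 18 libraries and open diamonds without the 3 libraries that stood apart. CGA1 lies below 0 in all 3 panels and SIG5 lies above, below and again above 0, while at 12 h the diamonds of GNC, SIG1 and SIG6 lie near 0, at -0.226, -0.0308 and -0.146.

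Set per length, the makeup of the sigma factor transcripts changed with light. The summed FPKM of SIG1 to SIG6 was 19.6 to 24.4 in dark WT, 97.9 to 156 at WT 12 h and 98.8 to 133 at WT 24 h. In hy1 it was 20.5 to 22.2, 81.3 to 100 and 89.9 to 96.9 FPKM at the same times. SIG5 made up 1.58% to 2.12% of that sum in dark WT and 2.53% to 3.62% in dark hy1. In WT light its share was 25.6%, 16.5% and 16.3% in the 12 h libraries, then 15.8%, 14.3% and 11.4% in the 24 h libraries. In hy1 light it was 16.9%, 16.6% and 14.8% in the 12 h libraries, then 27.1%, 26.6% and 25.9% in the 24 h libraries. The hy1 24 h shares lay above those of every other library, and within WT 12 h the replicate that did not stand apart had the highest share. SIG2 had the largest share in the dark libraries, from 32.9% to 37.8%. SIG3 and SIG4, the sigma factors outside the 8, rose at both times in both genotypes, SIG3 by 1.72 ± 0.15 (edgeR adjusted p = 2.8e-07) and SIG4 by 2.01 ± 0.54 (adjusted p = 0.0061) at WT 12 h, and without the 3 libraries 1 of the 2 was called there. CSK, a kinase of plastid sigma factors, rose in all 4 light comparisons, from 0.66 ± 0.1 (adjusted p = 6.5e-05) at hy1 12 h to 0.74 ± 0.1 at WT 24 h (adjusted p = 1.6e-05). Of the sigma factor binding proteins SIB1 was not called in any of them, and SIB2 had no read in any library.

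**Figure D4:**
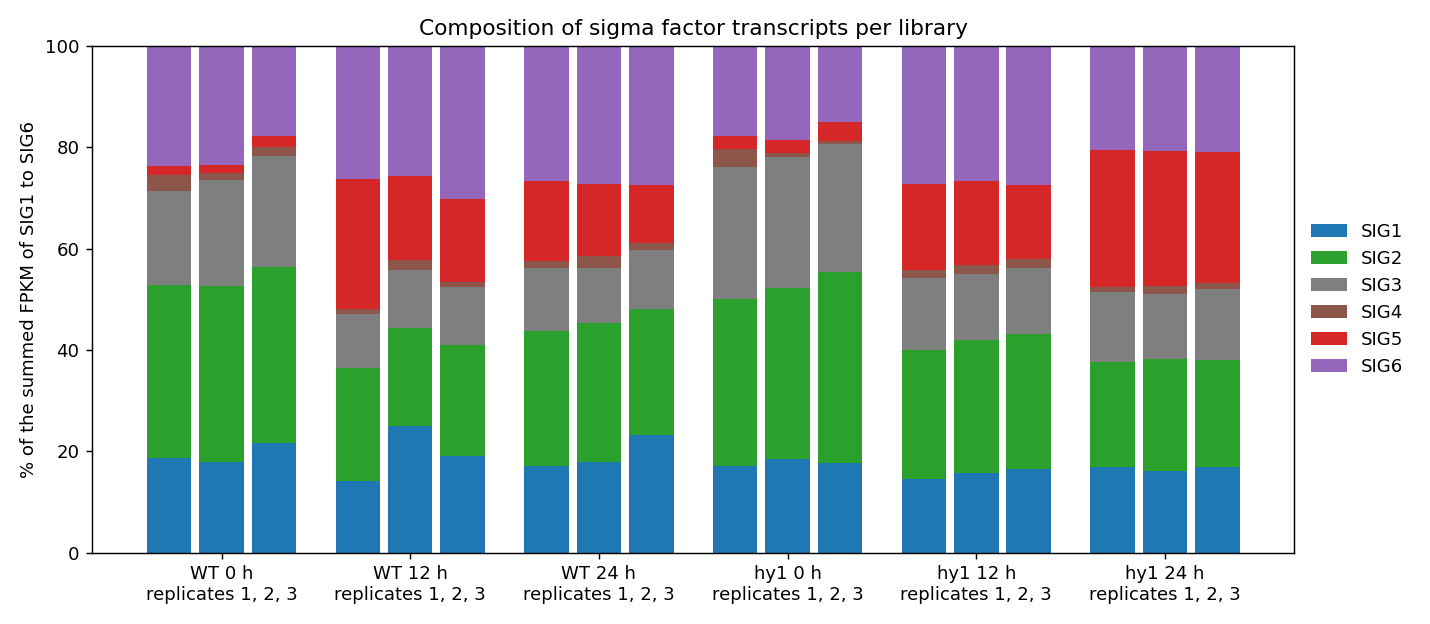
Share of each sigma factor gene (colours) in the summed FPKM of SIG1 to SIG6 (vertical axis, %) in each of the 18 libraries, ordered by group and replicate. SIG5 grows from at most 3.62% in the dark to between 11.4% and 27.1% in light, with the widest bands at hy1 24 h.

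Other genes of the plastid transcription machinery also rose in light. Of 12 proteins associated with the plastid-encoded polymerase, 11 rose and 0 fell at WT 12 h, and 12 of 12 rose at WT 24 h, hy1 12 h and hy1 24 h, beside 28.3%, 24.6%, 22.9% and 20.4% of tested genes. PTAC14 rose by 1.89 ± 0.11 at WT 24 h (edgeR adjusted p = 1.6e-09) and by 1.95 ± 0.11 at hy1 12 h (adjusted p = 2.1e-09), and the fructokinase-like FLN1 by 3.14 ± 0.19 at hy1 12 h (adjusted p = 9e-09). At 24 h 7 of the 12 were lower in hy1 than in WT and 0 higher, where 10.2% of tested genes were lower, with a median of -0.43 beside -0.04 over all genes. PTAC6 had the smallest adjusted p (-0.54 ± 0.093, adjusted p = 0.00094), and PTAC12 (-0.86 ± 0.28, adjusted p = 0.042) and FLN1 (-0.81 ± 0.18, adjusted p = 0.0064) differed by more. The count was 10 without the 3 libraries that stood apart, in a fit that called 33.6% of tested genes in either direction. The 3 phage-type, single-subunit polymerases, which work beside the bacterial-type enzyme in plastids or in mitochondria, rose in all 4 light comparisons. SCA3 (AT2G24120), the plastid enzyme, was at 16 ± 1.65 CPM (SD, n = 3) in dark WT, 87.1 ± 13.9 at 12 h and 57.6 ± 4.11 at 24 h, and at 17.1 ± 2.17, 52 ± 4.08 and 29.9 ± 1.5 CPM in hy1. All 3 were lower in hy1 at 12 h and 24 h, SCA3 by -0.74 ± 0.12 (adjusted p = 0.00061) and -0.95 ± 0.12 (adjusted p = 0.00011). The counts were again 3 in each of these comparisons without the 3 libraries, and 17.8% and 10.2% of tested genes were lower over 18 libraries.

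Most other B-class GATA genes were lower in dark hy1 than in dark WT. Of 5 tested, 4 were lower in dark hy1 and 0 higher, where 12.4% of tested genes were lower and 12.2% higher. Among the 4 were GATA17 (-0.81 ± 0.13, edgeR adjusted p = 0.00035), GATA17L (-0.80 ± 0.14, adjusted p = 0.00069) and GATA15 (-0.77 ± 0.15, adjusted p = 0.0015). In light 2 of 5 rose in WT at each time, beside 28.3% and 24.6% of tested genes, and 4 of 5 in hy1, beside 22.9% and 20.4%. GATA17 went from 9.89 ± 0.344 to 11.5 ± 1.46 CPM at 12 h in WT (0.22 ± 0.13, adjusted p = 0.15) and from 5.64 ± 0.198 to 11.2 ± 1.54 CPM (SD, n = 3) in hy1 (0.99 ± 0.13, adjusted p = 1.3e-05). Its light response differed between genotypes at 12 h (0.77 ± 0.18, adjusted p = 0.012) and 24 h (0.65 ± 0.18, adjusted p = 0.036). Over 18 libraries GATA17 was the only 1 of the 5 with a called interaction at 12 h, beside 13.5% of tested genes, and the only 1 at 24 h, beside 8.67%. It was not the only 1 at either time without the 3 libraries that stood apart, a fit that leaves 1 WT 12 h library.

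Among 16 genes known to be controlled by GLK factors, chiefly of chlorophyll synthesis and light harvesting, 8 rose at WT 12 h, 14 at WT 24 h, 13 at hy1 12 h and 15 at hy1 24 h, and 0 fell, where 28.3%, 24.6%, 22.9% and 20.4% of tested genes rose. Their medians were 0.96, 1.77, 1.19 and 2.06 on the log2 scale, and without the 3 libraries 11 and 15 rose in WT, beside 25.2% and 29.6% of tested genes. GUN5, a subunit of magnesium chelatase, went from 52.4 ± 13.2 CPM (SD, n = 3) in dark WT to 476 ± 56.2 at 12 h and 737 ± 151 at 24 h, while GLK1 fell. In the dark 8 of the 16 were lower in hy1 and 2 higher, beside 12.4% and 12.2% of tested genes, so that the share higher was near that of all genes. Among these CRD1, a cyclase of chlorophyll synthesis, was lower by -1.21 ± 0.19 (edgeR adjusted p = 0.00028) and GUN5 by -1.22 ± 0.2 (adjusted p = 0.00041), with HEMA1, which makes the first committed precursor, among the higher (0.80 ± 0.15, adjusted p = 0.0014). The dark counts were again 8 and 2 without the 3 libraries, where 45.2% of tested genes were called. At 12 h the light response differed for 5 of the 16, beside 13.5% of tested genes, 4 of them more positive in hy1, among them LHCB2.2, an antenna gene with close paralogs between which reads cannot be split with certainty (4.75 ± 0.73, adjusted p = 0.0011), which was at 8.37 ± 5.78 CPM at WT 12 h and 37.3 ± 10.3 CPM (SD, n = 3) at hy1 12 h. In light 3 of 16 were higher in hy1 at 12 h and 1 lower at 24 h, beside 14.9% and 10.2% of tested genes. The 3 calls at 12 h did not hold without the 3 libraries that stood apart, a fit that leaves 1 WT 12 h library. In that fit more of the 16 were called lower at 24 h, as were more of all tested genes.

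The genes whose log2 CPM most resembled each member over the 18 libraries are given as a description, among 15039 genes averaging at least 5 CPM and with the group differences and library quality shared by all points. SIG6 lay closest to AT4G24930 (r = 0.996) and CYP97A3, a carotenoid hydroxylase (0.995). SIG2 lay closest to AT1G15290 (0.994) and HEMC, an enzyme of tetrapyrrole synthesis (0.993), and SIG5 to SPA1, a light-signalling repressor (0.991). SIG1 lay closest to CLPP3, a subunit of the plastid Clp protease (0.988), GNC to AT1G49750 (0.988) and SVR1 (0.984), and CGA1 to AT5G39840 (0.982). The GLK genes had the least close neighbours, AT4G28780 for GLK1 (0.931) and PME1 for GLK2 (0.945).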

How the data were processed

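Poly-A RNA libraries were made with a TruSeq kit from TRIzol-extracted RNA, per the labels. The deposited counts are whole numbers of reads on each gene, and the authors obtained them from featureCounts 2.0.3 with a TAIR10 annotation, per the file headers. Strand was ignored, reads with several alignments were left out, and each mate of a pair counted as 1 read, which made 73.2% to 78.4% of the low counts, those of 1 to 10, even numbers. STAR 2.7.8a, StringTie 2.1.3 and HTSeq are named in the submitters' processing notes with no role stated. The authors' deposited FPKM exceeded the FPKM recomputed from the count table by a factor of 10 in each of 408813 values. FPKM in the text is computed, and the deposited FPKM was used only in the limma alternatives.

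R 4.3.3, edgeR 4.0.16, limma 3.58.1 and DESeq2 1.42.0 were used. An edgeR quasi-likelihood model of 6 group means with TMM scaling was fitted to 18 libraries and to the 20955 genes left by filterByExpr, two-sided, with Benjamini-Hochberg adjustment over those genes within each of 12 comparisons. Standard errors are Wald errors with the fit's quasi-dispersion. The scripts were tested on simulated data. The 8 genes, the gene lists and the alternatives were chosen with earlier results of these data known. Named are the 8 genes, up to 3 members of a list with the smallest adjusted p in a comparison, and the 3 genes most like each member, of which the first 1 or 2 are printed; STM, FAMA and the levels of named genes accompany results. Gene names follow RefSeq TAIR10.1, in which 99.95% of matched loci had the same coordinates as the count table. Whether the replicate numbers pair the samples is not known. No comparison had all 3 same-numbered pairs correlated over 0.1, although single pairs were (27 pairs, r from -0.48 to 0.76). With deviations from means of 3 libraries this cannot exclude pairing. No replicate block was used in the results given. Alternatives were other scalings, filters, tests, a block, groups compared alone, a stricter threshold and libraries left out.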

Additional observations from a re-analysis of the deposited data

Results flagged for a closer look

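The light responses of 4 of the 8 genes differed between hy1 and WT in a test of the difference itself. For GLK1 the log2 response of hy1 minus that of WT was 2.21 at 12 h and 2.62 at 24 h, a fall in WT beside a rise in hy1 from a lower dark level. The difference for SIG5 was -1.46 in the response at 12 h and 1.46 in the step from 12 h to 24 h. For GLK2 it was 0.95 at 12 h and for SIG2 it was -0.62 at 24 h, both close to the threshold (edgeR adjusted p = 0.041 and 0.046). No explanation of these differences was tested.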

How the results depend on the processing

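Of 2880 values of the 8 genes under alternatives, 63 lost a call, 44 gained one, and 0 called values reversed. Of the values that were not called, 63 changed sign, 13 of them by more than 1 standard error. Counts of the 8 genes called stayed within 1.5 times of those given for light against 0 h in both genotypes, for hy1 against WT at 0 h and 24 h and for the interaction of the 12 h to 24 h step. The others changed. WT 24 h against 12 h had 1 call, 2 with a replicate block (CGA1 at -1.39, adjusted p = 0.032) or the DESeq2 Wald test, 0 with the groups alone, and 1 to 5 when leaving out 1 library. For hy1 24 h against 12 h the 1 call became 3 with the groups alone and 2 without the 3 libraries that stood apart. The 6 calls between genotypes at 12 h became 2 with the groups alone, 3 without those 3 libraries, and 3 to 7 when leaving out 1 library, with 3 without WT 12 h replicate 2. At 12 h the interaction had 3 calls, and 2 to 6 when leaving out 1 library, with 6 without WT 12 h replicate 1. At 24 h it had 2, and 1 with DESeq2 size factors, no filter or adjusted p under 0.01, and 1 to 3 when leaving out 1 library. Over all genes, leaving out WT 12 h replicate 1 took calls from 1902 to 8279 for WT 24 h against 12 h. It took those of the 12 h interaction from 2835 to 8626. Leaving out WT 12 h replicate 2 took them from 6853 to 4479 between genotypes at 12 h. The cause of these changes was not tested. The block changed no other call of the 8 genes, and whether the numbers pair the samples is not known. Upper-quartile factors moved the median of all genes by 0.106 in the interaction at 12 h, where GLK1, GLK2 and SIG5 kept their calls, and no other scaling moved one by over 0.1. GLK1 at 24 h, not called between genotypes (0.656), passed in 4 other settings and in 6 fits leaving out 1 library. Over all fits leaving out 1 library, passing or not, this value ran from 0.329 to 0.878 (edgeR adjusted p from 0.012 to 0.28). Counts of list members called were outside 1.5 times in 316 of 2880 cases and counts over all genes in 52 of 360. Over all genes, without the 3 libraries, calls went from 1902 to 964 for WT 24 h against 12 h, 1025 to 3500 for hy1, 5154 to 9750, 6853 to 4085 and 4321 to 7244 between genotypes at 0 h, 12 h and 24 h, and 1816 to 3568 for the 24 h interaction. With the groups alone they went to 111, 3117, 9154 and 1496 for the first 4 of these and from 113 to 55 for the interaction of the step. With the DESeq2 Wald test they were 2976 and 1720 for the 2 steps, 4286 instead of 2835 for the 12 h interaction and 407 for that of the step. Few reads limit CGA1 in the dark.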

Other observations

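Of 10 regulators that act upstream of GLK, GATA or SIG genes, 4 rose and 1 fell at WT 12 h, where 28.3% of tested genes rose and 25.3% fell, and 4 rose and 2 fell at hy1 12 h, beside 22.9% and 21.3%. HYH, a bZIP factor of light signalling, rose by 5.11 ± 0.19 in WT (edgeR adjusted p = 5.5e-11) and 5.72 ± 0.2 in hy1 (adjusted p = 4.6e-11), and its relative HY5 by 2.58 ± 0.13 (adjusted p = 7.8e-10) and 1.53 ± 0.13 (adjusted p = 1.8e-07). PIF4, a dark-promoting bHLH factor, had a time course that crossed between genotypes, at 54.2 ± 3.79, 17.4 ± 4.6 and 7.8 ± 1.66 CPM (SD, n = 3) in WT and 26.9 ± 1.91, 5.37 ± 0.893 and 16.9 ± 2.44 CPM in hy1 at 0 h, 12 h and 24 h. Its step from 12 h to 24 h differed by 2.81 ± 0.27 (adjusted p = 6.4e-05). PIF4 and SIG5 were the only called genes in that step among the 8 and the 10 regulators.

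Of 10 chloroplast division genes, 4 rose and 1 fell at WT 12 h, a share of rises near that of all tested genes (28.3%), and 7 rose and 0 fell at hy1 12 h, beside 22.9% of tested genes up. These were 6 and 8 without the 3 libraries that stood apart, beside 25.2% and 30.8%. FTSZ1-1, which forms the plastid division ring, was lower in dark hy1 (-0.74 ± 0.15, edgeR adjusted p = 0.0018) and rose by 0.88 ± 0.15 in WT (adjusted p = 0.00011) and 1.67 ± 0.15 in hy1 (adjusted p = 2.6e-07) at 12 h. Of 12 plastid-encoded genes 9 had enough reads to be tested, in poly-A libraries that hold 0.00097% to 0.00771% plastid reads. Of these 2 rose at WT 12 h, 1 at WT 24 h, 2 at hy1 12 h and 5 at hy1 24 h, and 0 fell. Over all tested genes 28.3%, 24.6%, 22.9% and 20.4% rose in these comparisons, so the first 3 counts are not above that share. At hy1 24 h 1 library, replicate 1, holds 0.00771% plastid reads beside 0.0019% and 0.00193% in the others. RBCL rose in all 4 light comparisons, by 3.15 ± 0.6 at WT 12 h (adjusted p = 0.00042) and 2.91 ± 0.71 at hy1 12 h (adjusted p = 0.0023). CASP genes of the endodermis summed to 500 to 699 CPM at WT 12 h and 35.6 to 64.5 CPM at WT 24 h, and to 311 to 348 and 65.4 to 80.4 CPM in hy1. Root hair markers summed to at most 0.522 CPM and seed storage genes to at most 0.615 CPM in any library.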
